A study of Mus musculus with 4 samples.

Results

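The genes described here are those of the proteasome, chosen by name as every listed gene called Psma, Psmb, Psmc, Psmd, Psme, Psmf or Psmg with a number. Of 21959 listed genes 51 carry such a name, and 50 of them had at least 20 counts in at least 1 library. The gene left out is Psmb11, the thymus-specific catalytic subunit, which had 0 counts in all 4 libraries, and the member with the fewest counts is Psma8, a testis-type ring subunit, with at most 41. The 50 members were divided into 5 that interferon is known to induce, namely Psmb8, Psmb9, Psmb10, Psme1 and Psme2, and 45 others. RNA had been sequenced from 4 libraries: DCs from MC38 tumours, a mouse colon carcinoma model, of mice given X-Ray+O-IMDQ; DCs from such tumours of mice given PBS; CD3+ T cells from tumours of mice given X-Ray+O-IMDQ; and CD3+ T cells from tumours of mice given PBS. All mice carried MC38 tumours, and cells were taken 72 h after the second dosing. X-Ray+O-IMDQ is what the series calls a radiotherapy-activated prodrug. The strain, the sorting gates and the number of animals behind a library are not given in the sources used here, and no group received X-rays alone or the prodrug alone.

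The proteasome is the barrel-shaped protease that degrades ubiquitin-tagged proteins. Its 20S core is built from alpha rings, which gate the entry, and beta rings, which hold the catalytic subunits Psmb5, Psmb6 and Psmb7. Its 19S cap recognises and unfolds substrates with a ring of ATPases and a set of non-ATPase subunits. Interferon, above all interferon-gamma, induces 3 alternative catalytic subunits that replace the constitutive ones in newly assembled cores: Psmb8 takes the place of Psmb5, Psmb9 that of Psmb6 and Psmb10 that of Psmb7. The resulting immunoproteasome is the usual form in immune cells and yields peptides suited to MHC class I. Psme1 and Psme2 together form PA28 alpha-beta, an interferon-inducible cap of the 20S core, while the related Psme3 forms a nuclear cap.

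The promoters of the Psmb8 and Psmb5 pair and of the Psmb9 and Psmb6 pair are printed because the balance within these pairs is compared in each library. Each run is the 250 bases before the RefSeq gene start on build GRCm38.p6, given on the gene's strand, and capitals mark matches to the motifs named after them. Psmb8 lies at chr17:34197945-34198194 on the plus strand, Psmb5 at chr14:54617996-54618245 on the minus strand, Psmb9 at chr17:34187331-34187580 on the minus strand and Psmb6 at chr11:70525107-70525356 on the plus strand.
Psmb8: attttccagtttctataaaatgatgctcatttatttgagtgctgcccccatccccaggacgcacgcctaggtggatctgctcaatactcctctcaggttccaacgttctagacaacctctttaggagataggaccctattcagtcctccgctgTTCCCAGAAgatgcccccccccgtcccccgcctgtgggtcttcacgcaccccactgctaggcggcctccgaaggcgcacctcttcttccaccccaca
Psmb5: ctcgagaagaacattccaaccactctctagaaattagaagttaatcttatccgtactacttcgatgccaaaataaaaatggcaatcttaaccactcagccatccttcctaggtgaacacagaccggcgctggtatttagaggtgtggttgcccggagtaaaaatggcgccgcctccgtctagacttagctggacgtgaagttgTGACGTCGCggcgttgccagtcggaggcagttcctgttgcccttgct
Psmb9: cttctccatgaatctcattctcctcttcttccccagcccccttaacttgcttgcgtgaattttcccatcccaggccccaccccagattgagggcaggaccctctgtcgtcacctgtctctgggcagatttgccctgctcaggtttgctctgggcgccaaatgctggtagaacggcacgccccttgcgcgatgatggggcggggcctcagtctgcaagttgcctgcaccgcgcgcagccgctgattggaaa
Psmb6: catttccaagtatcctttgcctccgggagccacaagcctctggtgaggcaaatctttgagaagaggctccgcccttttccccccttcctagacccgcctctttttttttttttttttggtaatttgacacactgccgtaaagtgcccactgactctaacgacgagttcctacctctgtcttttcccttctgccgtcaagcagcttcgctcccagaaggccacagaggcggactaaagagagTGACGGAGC
The capitals in Psmb8 match the gamma-activated sequence TTCNNNGAA, an element known from interferon-gamma responsive genes, and begin 97 bases before the start. Those in Psmb5 and Psmb6 match TGACNNNGC, the core of the antioxidant response element, and begin 47 and 9 bases before it. The Psmb9 window holds no match to any of the 3 motifs searched on both strands, the third being the interferon-stimulated response element, searched as GAAA, any 2 bases and GAAA again. None of the printed matches overlap another motif. RefSeq promoters were found for 42 of the 50 members, with 46 promoters in all. The gamma-activated sequence occurred in 1 of 6 promoters of the inducible members, in 1 of 40 of the others and in 7.02% of all 32851 promoters in the table. The antioxidant core occurred in 0 of 6, 5 of 40 and 10.2%, and the interferon-stimulated element in 0 of 6, 3 of 40 and 2.98%, in the same order. These matches describe letters only.

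Each group had 1 library, so there is no replicate check, every comparison is between libraries and not conditions, and no p-value is given. Total counts were 14056428 in treated DCs, 23797357 in PBS DCs, 18463944 in treated T cells and 18649824 in PBS T cells. Ratios are of TMM-scaled counts, treated over PBS, with an exact conditional binomial 95% interval. These intervals take in counting error of reads alone. They may be too narrow even for that, since amplified reads lacking molecular identifiers may be copies of 1 molecule. Calls, higher or lower, required a ratio of 2-fold or more whose interval excludes 0 on the log2 scale. The DC libraries stood far apart: 942 genes with 100 or more counts in the PBS library had 0 in the treated one, and 213 did so in the reverse direction. In the T cell libraries these numbers were 342 and 104. No member was at 0 in either DC library, and Psma8 was at 0 in both T cell libraries. All 10 T cell markers found in the table had counts in both T cell libraries. In the DC libraries Itgax had 3547 counts in the treated and 3982 in the PBS library, but the cDC genes Flt3 and Zbtb46 had 69 and 57 counts in the treated library and 16 and 9 in the PBS library. Of 10 dendritic cell markers 3 were called higher and 5 lower in treated DCs, and they did not move one way. H2-Ab1, of MHC class II, and Cd74, its invariant chain, made up 94.4% of the summed level of these markers in the treated and 98.4% in the PBS library. The other 8 summed to 471 CPM in treated and 930 CPM in PBS DCs, with Clec9a, Flt3 and Zbtb46 called higher and Cd209a, Batf3 and Ccr7 lower. Of 8 macrophage markers 0 were higher and 4 lower, with sums of 1504 and 6147 CPM in the same order. Batf3 was at 0 in treated DCs, and Cd3e, Cd247 and Cd4 were at 0 in both DC libraries. Other T cell markers had counts there: Cd3d and Cd5 were called higher, Cd3g, Cd2 and Lck lower, and Cd8b1 was not called. Cd3d had 812 counts in treated and 434 in PBS DCs, and Lck had 0 and 607 in the same order. Summed T cell markers were at 97.7 CPM in treated and 112 CPM in PBS DCs, and neutrophil markers at 93.6 CPM in treated and 21.7 CPM in PBS DCs. The neutrophil markers did not move one way: S100a8 and Cxcr2 were called higher and Csf3r lower, and S100a9 and Ly6g were at 0 in both DC libraries. The part of these shifts in the ratios below was not tested.

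In the DC libraries 39 of the 50 proteasome genes had lower scaled counts in the treated library, as had 5704 of all 10316 genes tested. The median log2 ratio of the interferon-inducible members lay above that of the others. Of the 50 members 25 were called lower and 3 higher, against a background of 41.8% lower and 30.2% higher among all 10316 genes tested. The median log2 ratio was -1.05 over all members, -0.67 over the 5 inducible ones and -1.13 over the 45 others, and it was -0.36 over all genes tested. The share called lower, 50% of members, lies near the background, whereas the share called higher, 6%, lies below it. Among genes with at least 1000 counts in either library the background was 40.6% lower and 21.7% higher, and 23 of 44 members were lower and 1 higher. Members took 1.23% of all counts in the treated and 2.10% in the PBS library. In bulk RNA, fewer cells of a type and less RNA per cell cannot be told apart.

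**Figure D1:**
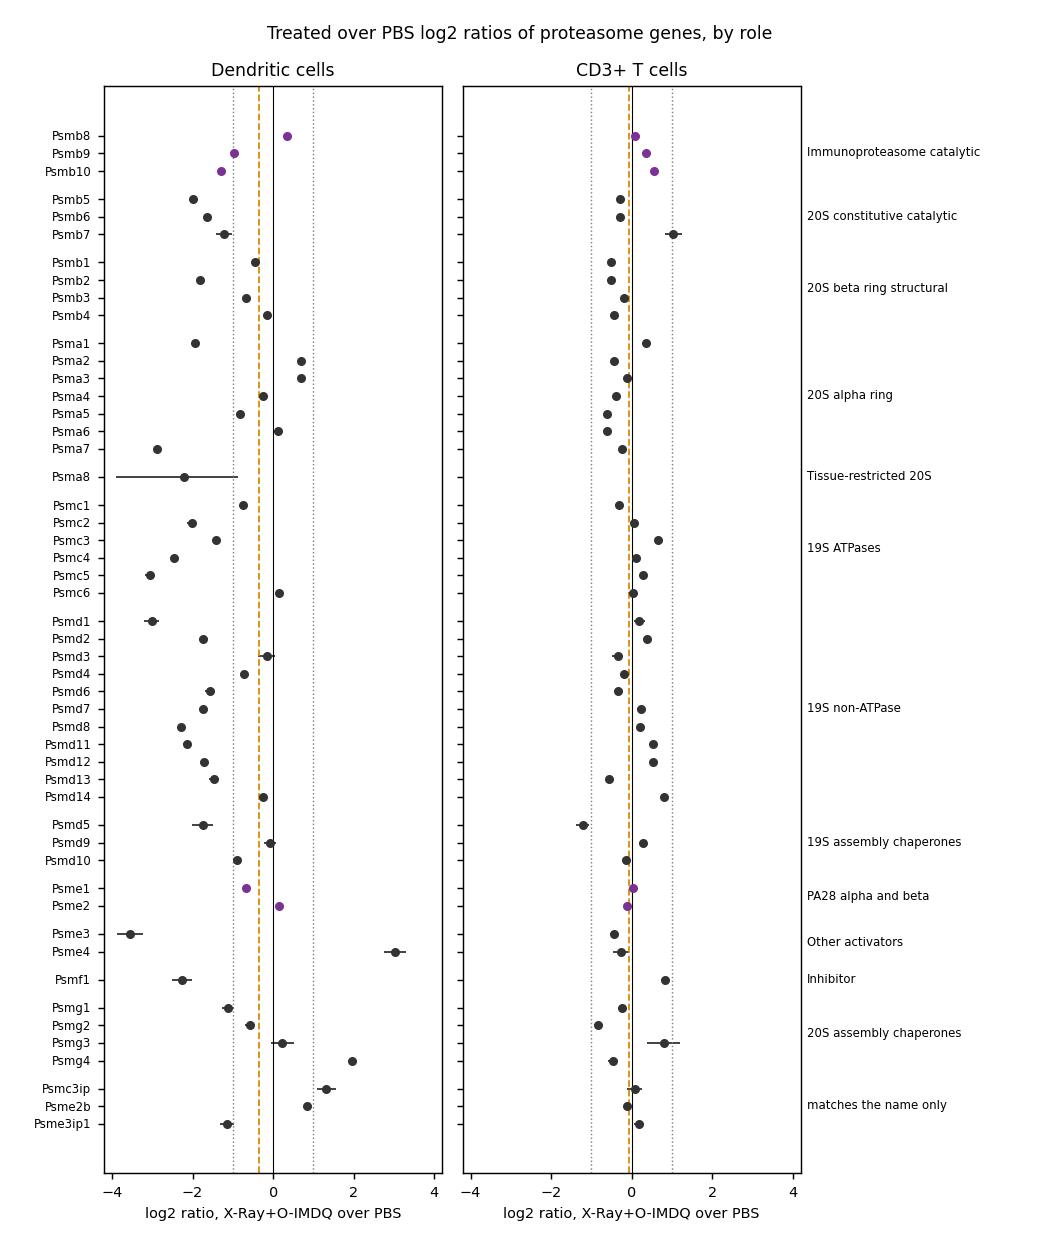
Log2 ratios of X-Ray+O-IMDQ over PBS for the members, grouped by role, in DCs (left) and CD3+ T cells (right). Points are single ratios with 95% counting intervals, purple marks the 5 interferon-inducible members, dotted lines mark 2-fold and the dashed line is the median of all genes tested. The DC ratios run from -3.54 to 3.02, and the T cell ratios from -1.21 to 1.03.

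Psmb8 (ENSMUSG00000024338, chromosome 17, 34416695 to 34420428 on GRCm39), the inducible chymotrypsin-like subunit, had 287 FPKM in treated DCs and 234 FPKM in PBS DCs. Its constitutive counterpart Psmb5 (ENSMUSG00000022193, chromosome 14, 54851576 to 54855479) had 107 FPKM in treated and 439 FPKM in PBS DCs. Per length, Psmb8 was thus the more abundant of the pair in treated DCs and Psmb5 in PBS DCs. This order rests on listed lengths of 3381 bases for Psmb8 and 899 for Psmb5. By counts alone Psmb8 was the larger in both, at 91.0% of the pair in treated and 66.7% in PBS DCs. The log2 ratio of Psmb8 was 0.35, not called, and Psmb5 was called lower at -1.98, which is 3.94-fold. Within the pair, Psmb8 made up 72.9% of FPKM in treated DCs, with an exact (Clopper-Pearson) 95% interval from 71.7% to 74.0%, and 34.8% in PBS DCs, with an interval from 34.2% to 35.3%. The ratio of Psmb8 to Psmb5 was 5.04-fold higher in treated DCs, a log2 change of 2.33 with an interval from 2.24 to 2.42. Library scaling cancels in this value. Of the pair, Psmb5 was the gene called. When genes were centred on those of like length, Psmb5 was called lower at -2.26 and Psmb8 higher at 1.36. With length and GC content corrected Psmb5 stood at -0.48 and was not called, while Psmb8 was called higher at 1.13.

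Psmb9 (ENSMUSG00000096727, chromosome 17, 34400961 to 34406738), the inducible caspase-like site subunit and a neighbour of Psmb8 in the MHC region, had 37.5 FPKM in treated and 76.6 FPKM in PBS DCs. Psmb6, its constitutive counterpart, had 380 FPKM in treated and 1233 FPKM in PBS DCs, where it was the most abundant member per length. Psmb9 had a log2 ratio of -0.97, just inside 2-fold, and Psmb6 was called lower at -1.64, a call lost at -0.47 when genes were centred on those of like length. The Psmb9 share of its pair was 8.98% in treated and 5.85% in PBS DCs, and the log2 change of their ratio was 0.67. That change was -0.64 when each gene was centred on genes of like length and GC content, where Psmb6 itself stood at 0.44, so its direction depends on the correction.

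Psmb10 (ENSMUSG00000031897, chromosome 8, 106662367 to 106665076), the inducible trypsin-like subunit, had 174 FPKM in treated and 446 FPKM in PBS DCs. It was called lower at -1.30, the only inducible member called in either cell type with TMM scaling, while with total-count CPM Psmb9 was called too, at -1.03. The Psmb10 call was lost when genes were centred on the median of all genes, at -0.94, on genes of like length, at -0.17, and on those of like length and GC content, at -0.39. Psmb7, its counterpart, had 5.12 FPKM in treated and 12.4 FPKM in PBS DCs and was called lower at -1.22. Psmb7 stood far below the other constitutive catalytic genes in every library, although these subunits are present in equal numbers in a constitutive core. Psmb10 made up 97.1% of the pair in treated and 97.3% in PBS DCs, and the log2 change of their ratio was -0.08 with an interval from -0.29 to 0.13. Summed over the 3 pairs, inducible subunits had 498 FPKM and constitutive ones 492 FPKM in treated DCs, against 756 and 1684 FPKM in PBS DCs. The inducible share of this sum was 50.3% in treated DCs and 31.0% in PBS DCs. These shares depend on the listed gene lengths and on the low level of Psmb7. Whether reads were assigned to the Psmb7 gene model as to the other genes was not tested. Without Psmb10 and Psmb7 the inducible share was 40.0% in treated and 15.7% in PBS DCs.

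**Figure D2:**
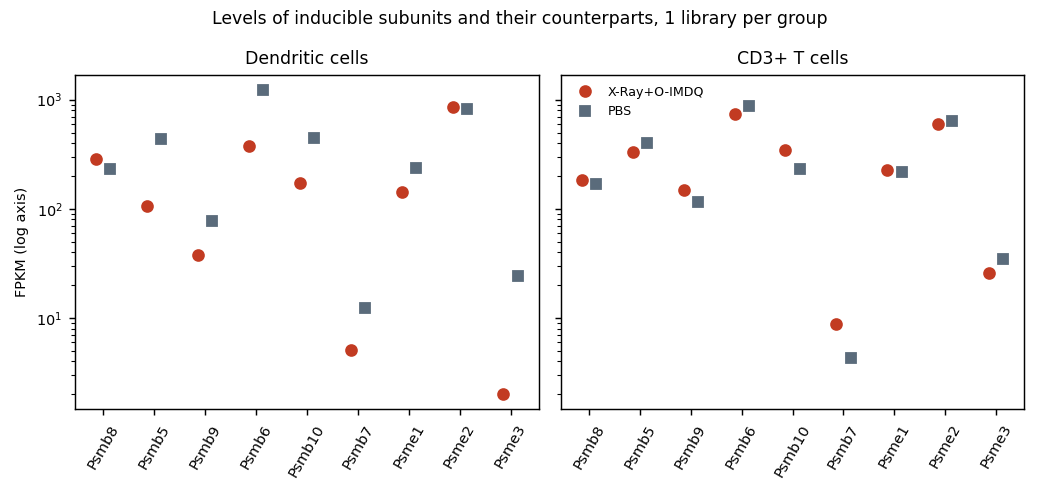
FPKM on a log axis of the inducible subunits and their counterparts in DCs (left) and T cells (right), 1 library per group, with X-Ray+O-IMDQ as red circles and PBS as grey squares. In DCs Psmb8 lies above its PBS value and Psmb5 below it, and Psmb7 lies far below the other catalytic genes in each library.

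**Figure D3:**
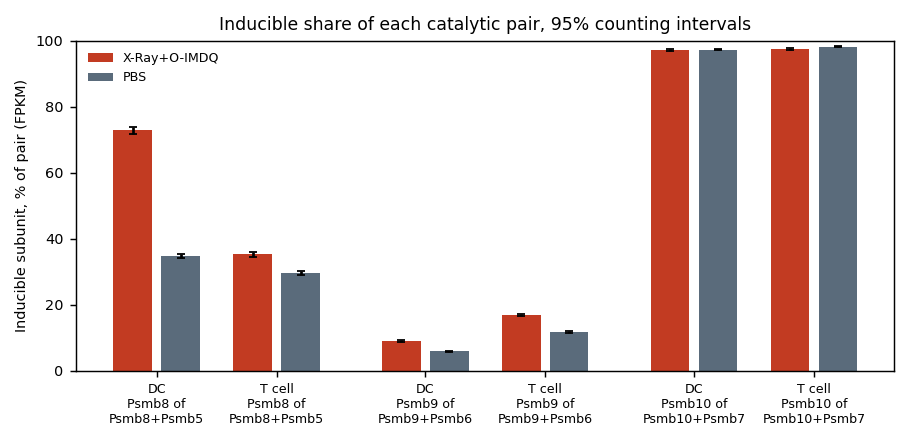
Percent of each catalytic pair's FPKM that belongs to the inducible subunit, with exact 95% counting intervals, for X-Ray+O-IMDQ (red) and PBS (grey). The Psmb8 bar in treated DCs stands at 72.9% and in the other 3 libraries between 29.7% and 35.2%.

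The caps of the 20S core differed from each other in DCs. Psme2 (chromosome 14, 55824898 to 55828570), the beta subunit of PA28, had 865 FPKM in treated DCs, the highest of all members there, and 817 FPKM in PBS DCs, with a log2 ratio of 0.14. Psme1, the alpha subunit, had 142 FPKM in treated and 236 FPKM in PBS DCs, with a ratio of -0.67. Neither was called. Psme2b, a copy of Psme2 on chromosome 11 with which it may share reads, had 463 FPKM in treated and 270 FPKM in PBS DCs, with a ratio of 0.84, so the split of reads between Psme2 and Psme2b is uncertain. Psme3, the nuclear PA28 gamma, was called lower with 83 counts in treated and 1707 in PBS DCs, or 11.7-fold. Psme4, the nuclear activator PA200, was called higher with 672 counts in treated and 146 in PBS DCs, or 8.12-fold. Psme3 and Psme4 thus had the lowest and the highest log2 ratio of the 50 members, at -3.54 and 3.02. Psmf1, the inhibitor PI31, was called lower with 163 counts in treated and 1379 in PBS DCs.

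Within the 20S core of DCs the ring subunits did not move together. Among the 7 alpha subunits Psma7 was called lower at -2.89 and Psma1 at -1.94, and 0 were called higher, so that 28.6% were lower against 41.8% of all genes. The Psma1 call was lost at -0.75 with length centring and at -0.57 with GC content added. With length centring alone, Psma2, Psma3 and Psma4 were called higher. Psma7 had 52.2 FPKM in treated and 403 FPKM in PBS DCs. Psma2 and Psma3, by contrast, had log2 ratios of 0.68 and 0.70, and Psma6 one of 0.12. The products of these genes are built into the ring in equal numbers, yet their DC ratios spanned a range from -2.89 to 0.70. Of the 4 structural beta subunits Psmb2 was called lower at -1.82, and Psmb1, Psmb3 and Psmb4 stood at -0.45, -0.67 and -0.16. Psma8 was called lower with 5 counts in treated and 41 in PBS DCs.

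In the 19S cap of DCs 12 of the 17 ATPase and non-ATPase subunits were called lower, or 70.6%, against 41.8% of all genes. When each gene was centred on genes of like length, 6 of the 17 were called lower, or 35.3%, against 36.9% of all genes, and with GC content added 5 were, or 29.4%, against 36.3%. The larger share of lower calls was thus not seen under either correction. Of the 6 ATPases, which unfold and feed the substrate, 4 were called lower: Psmc5 at -3.07, Psmc4 at -2.47, Psmc2 at -2.03 and Psmc3 at -1.42. Psmc5 had 841 counts in treated and 12461 in PBS DCs. Psmc1 and Psmc6 had ratios of -0.75 and 0.16. Of the 11 non-ATPase subunits 8 were called lower and 0 higher. The lowest was Psmd1, the scaffold of the cap, with 246 counts in treated and 3504 in PBS DCs and a log2 ratio of -3.01. Psmd8 and Psmd11 stood at -2.29 and -2.14, and Psmd2, Psmd6, Psmd7, Psmd12 and Psmd13 lay between -1.74 and -1.48. The deubiquitinase Psmd14, the ubiquitin receptor Psmd4 and Psmd3 were not called, with ratios of -0.25, -0.71 and -0.16. Psmd14 had 88.2 FPKM in treated and 109 FPKM in PBS DCs. Of the 3 chaperones of cap assembly, Psmd5 was called lower at -1.74, and Psmd9 and Psmd10 stood at -0.08 and -0.90. The subunits called lower under both corrections were Psmc2, Psmc5, Psmd1, Psmd2 and Psmd11, and Psmd8 was called with length alone. The calls of Psmc3, Psmc4, Psmd6, Psmd7, Psmd12 and Psmd13 were lost under both. With GC content included, Psmc3 and Psmd7 stood at 0.11 and 0.05, Psmd8 at -0.88, and Psmd4 was called higher at 1.25.

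The chaperones that assemble the 20S core split by gene in DCs. Psmg4 was called higher, with 269 FPKM in treated and 71.8 FPKM in PBS DCs, or 3.91-fold. Psmg1 was called lower, with 24.1 FPKM in treated and 54.8 FPKM in PBS DCs, while Psmg2 and Psmg3 had ratios of -0.57 and 0.23. The Psmg1 call was lost when genes were centred on the median of all genes, at -0.77, on genes of like length, at -0.0011, and on those of like length and GC content, at -0.98. Under the 2 corrections with length, Psmg3 was called higher at 1.41 and 2.19. Of the rows that match by name only, Psmc3ip, a partner of meiotic recombinases, was called higher at 1.32, and Psme3ip1, a partner of Psme3, lower at -1.13. Without these rows and Psme2b, 24 of 47 members were lower and 2 higher, and the median of the others was -1.32.

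Gene length moved with the DC ratios. The median log2 ratio of all genes tested was -0.93 in the shortest of 4 equal length classes, which held 24 members, and 0.37 in the longest, which held 4. Within the shortest class the medians were not even. In the shortest of 20 bins, up to 1295 bases, the median was 0.29, so length centring lowered the ratios of members there. Psmb5, Psmb2, Psma6, Psmg4 and Psme2b lie in that bin. Centred on genes of like length in 20 bins, 12 members were lower and 9 higher, against 36.9% lower and 34.7% higher of all genes. The inducible median was then 0.82 and the median of the others -0.25, so the inducible members stood 1.06 above the others, against 0.46 without this centring. With GC content included the difference was 1.46, with Psme1 at 1.12. Psmb8 and Psme2 were called higher under both corrections, at 1.36 and 1.31 with length alone and at 1.13 and 1.47 with GC content. The log2 change of Psmb8 over Psmb5 was 3.62 with length alone and 1.61 with GC content.

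**Figure D4:**
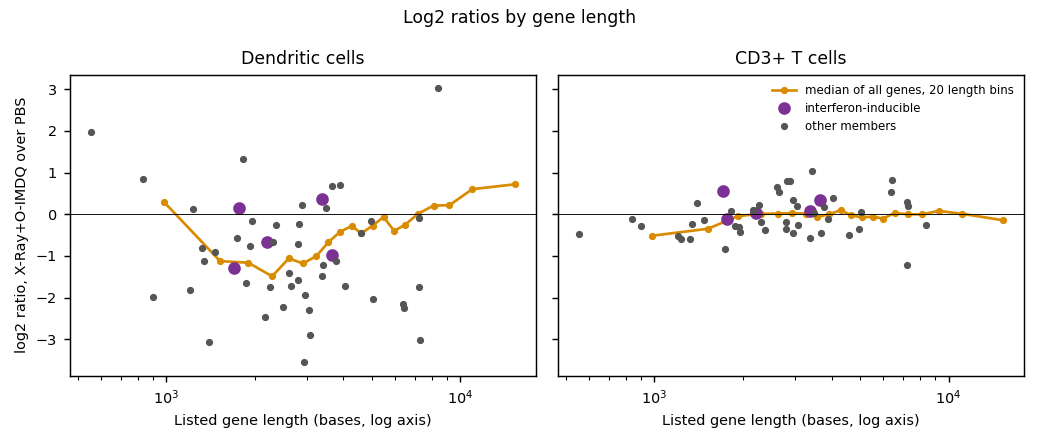
Log2 ratio of X-Ray+O-IMDQ over PBS against listed gene length (log axis) in DCs (left) and T cells (right). The orange line is the median of all genes tested in 20 length bins, purple circles are interferon-inducible and grey dots other members. In DCs the line lies at 0.29 in the shortest bin, below -1 in the bins from 1296 to 3405 bases and at 0.72 in the longest bin. In T cells it lies between -0.52 and 0.10.

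In the T cell libraries the proteasome genes differed little. Of 49 members tested, 1 was called higher and 1 lower, against a background of 18.3% higher and 25.4% lower among all 11058 genes. Among genes with at least 1000 counts in either library the background was 10.5% higher and 7.25% lower, and 0 of 42 members were higher and 1 lower. The median log2 ratio was -0.13 over all members, 0.08 over the 5 inducible ones and -0.17 over the 44 others, and it was -0.07 over all genes tested. Members took 1.56% of counts in treated and 1.62% in PBS T cells.

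**Figure D5:**
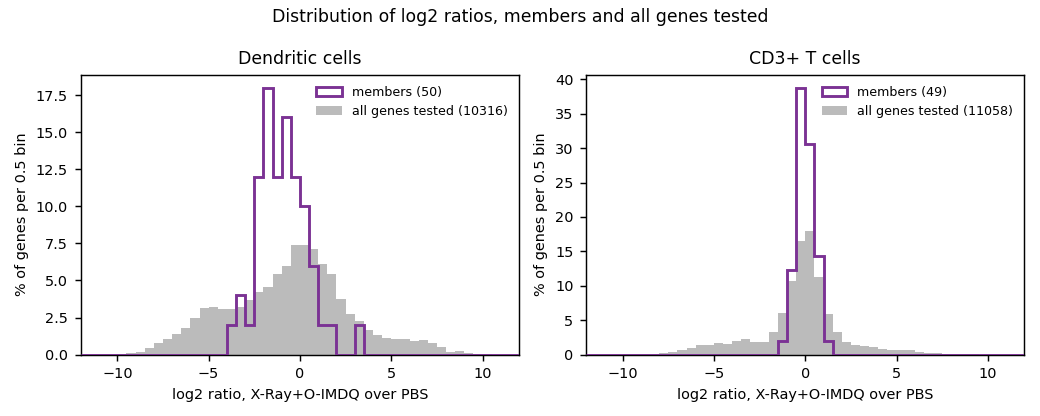
Percent of genes per bin of log2 ratio, X-Ray+O-IMDQ over PBS, for members (purple line) and all genes tested (grey) in DCs (left) and T cells (right). In T cells the members lie between -1.21 and 1.03, and in DCs between -3.54 and 3.02.

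The member called higher in T cells was Psmb7, with 560 counts in the treated and 272 in the PBS library, or 2.04-fold. The member called lower was Psmd5, a chaperone of cap assembly, with 481 counts in treated and 1106 in PBS T cells, or 2.32-fold, and it was lower in DCs too. The Psmb7 call was lost with upper-quartile scaling and with log2(CPM + 1), at 0.93 and 0.98. Psmb7 was the member called in opposite directions in the 2 cell types. Its DC call was lost as well when genes were centred on the median of all genes, at -0.86, or on genes of like length, at -0.54. With length and GC content Psmb7 was called in both cell types, at -1.16 in DCs and 1.47 in T cells.

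All 3 inducible catalytic genes had T cell ratios above 0, and none was called. Psmb10 had 347 FPKM in treated and 233 FPKM in PBS T cells, with a log2 ratio of 0.55. Psmb9 had 150 FPKM in treated and 115 FPKM in PBS T cells, with a ratio of 0.35. Psmb8 had 182 FPKM in treated and 169 FPKM in PBS T cells, with a ratio of 0.08, which turned to -0.01 with upper-quartile scaling. The constitutive Psmb5 had 335 FPKM in treated and 399 FPKM in PBS T cells, and Psmb6 had 733 and 877 FPKM in the same order, with ratios of -0.28 and -0.29. The Psmb9 share of its pair was 17.0% in treated T cells, with an interval from 16.6% to 17.3%, and 11.6% in PBS T cells, with an interval from 11.3% to 11.9%. The Psmb8 share was 35.2% in treated and 29.7% in PBS T cells, and the Psmb10 share 97.5% in treated and 98.2% in PBS T cells. By counts alone, not divided by length, the Psmb8 share was 67.1% in treated and 61.4% in PBS T cells. The log2 changes of the ratios were 0.64 for Psmb9 over Psmb6, 0.36 for Psmb8 over Psmb5 and -0.48 for Psmb10 over Psmb7. The change for Psmb8 over Psmb5 was -0.17 when genes were centred on those of like length. Over the 3 pairs the inducible share of FPKM was 38.7% in treated and 28.8% in PBS T cells, and without Psmb10 and Psmb7 it was 23.7% in treated and 18.2% in PBS T cells.

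Apart from Psmd5, the tested members of the other roles stayed within 2-fold in T cells. Psme1 had 229 FPKM in treated and 219 FPKM in PBS T cells, and Psme2 had 601 FPKM in treated and 644 FPKM in PBS T cells, with ratios of 0.04 and -0.13. Psme3 and Psme4, which lay furthest apart in DCs, had T cell ratios of -0.44 and -0.26. Of all 11058 genes tested in T cells 5802 lay below 0 and 5256 above. Of the 7 alpha subunits 6 lay below 0, with a list median of -0.39, and Psma1 stood at 0.35. The 4 structural beta subunits all lay below 0, from -0.51 to -0.18. Of the 6 ATPases of the cap 5 lay above 0, led by Psmc3 at 0.65, and of the 11 non-ATPase subunits 7 lay above 0, led by Psmd14 at 0.79. Psmf1, the inhibitor, had 2374 counts in treated and 1333 in PBS T cells, a ratio of 0.82. Of the 20S chaperones, Psmg3 had a ratio of 0.79 on 145 counts in treated and 83 in PBS T cells, and Psmg2, Psmg4 and Psmg1 had ratios of -0.83, -0.47 and -0.24.

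Levels per length kept a like order in the T cell and PBS DC libraries. Across the 50 members the Spearman correlation of FPKM was 0.97 between treated and PBS T cells, 0.966 between PBS DCs and PBS T cells and 0.849 between treated and PBS DCs. These points share gene lengths and are given as a description. Psmb6 was the most abundant member per length in PBS DCs and in both T cell libraries, and Psme2 the second. In treated DCs Psme2 ranked first, Psme2b second and Psma2 the third, and Psmb6 the fourth. Psmb9 was lower per length in both DC libraries, at 37.5 and 76.6 FPKM for treated and PBS, than in both T cell libraries, at 150 and 115 FPKM for treated and PBS.

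Genes that work with the proteasome but lie outside the name rule were read from a list of 16 partners. In DCs 6 were called higher, or 37.5% against 30.2% of all genes, and 6 lower, or 37.5% against 41.8%. Both shares lay near the background. Sem1, a small subunit of the 19S cap, had 70133 counts in treated and 10528 in PBS DCs, a log2 ratio of 3.56, and Pomp, the maturation factor of the 20S core, was 2.74-fold higher. Nfe2l1, the transcription factor that raises proteasome genes when proteasomes fail, had 562 counts in treated and 55 in PBS DCs, and its activating protease Ddi2 was 2.21-fold higher. Ecpas, which binds assembled proteasomes, and the ubiquilin Ubqln2 were also higher, at log2 ratios of 4.74 and 3.35. The ubiquitin receptor Adrm1 was lower at -2.60, with Uchl5 and Usp14, deubiquitinases of the cap, at -1.48 and -1.08, Ubqln1 at -1.17 and Ngly1, which processes Nfe2l1, at -1.86. In T cells 1 partner was called higher and 1 lower, or 6.25% each, against 18.3% and 25.4% of all genes. Usp14 was the higher one there, at 1.76. Ubqln2 was the lower one, with 3 counts in treated and 70 in PBS T cells. Its log2 ratio was -4.56, with an interval from -6.87 to -2.95.

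A list of 16 interferon regulators and class I loading genes was read beside the inducible members. In DCs 5 were called higher, or 31.2% against 30.2% of all genes, and 4 lower, or 25% against 41.8%, with a list median of 0.19. The share called higher thus lay at the background. Irf1, a transcription factor through which interferon acts on Psmb9, was higher at a log2 ratio of 1.77, as were Stat2, Tap2 and B2m at 1.71, 1.40 and 1.15. Erap1, Pdia3, H2-D1 and Tapbpl were lower, at -2.16, -1.67, -1.08 and -1.02. Tap1, a peptide transporter gene next to Psmb9, had a ratio of 0.32, and Nlrc5, the class I transactivator, and Irf9 had ratios of -0.57 and -0.82. In T cells the list median was 0.38. Of the list 2 genes were called higher, or 12.5% against 18.3% of all genes, and 1 lower, or 6.25% against 25.4%. There Irf9 and Nlrc5 were higher at log2 ratios of 1.55 and 1.05, Erap1 was lower at -1.44, and Irf1, not called, had a log2 ratio of 0.89.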

How the data were processed

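RNA was measured in 4 libraries, 1 per group, of DCs and CD3+ T cells. The deposited tables give raw read counts per gene, which are whole numbers, and FPKM, which the authors scaled to listed gene length and to counted reads, per the file headers. Each FPKM equals the count so scaled within a relative difference of 2.04e-07. Build GRCm39 and the tools RSEM 1.2.12, HISAT2 2.0.4, R 3.3.1 and DESeq2 1.24.0 are listed, without roles, per the submitters' processing notes. The counting step and strand setting are not given in the sources used here, nor whether a library pools animals. Deposited gene lengths in bases were used for the length centring. Columns were tied to samples through read file names in their descriptions, whose numbers differ from those in the titles, and 4 columns that match no sample were not used.

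Counts were scaled with TMM within each cell type (edgeR 4.0.16, R 4.3.3), and levels are given as FPKM or TMM-scaled CPM. A gene with a symbol and 20 counts in either library was tested, and 0 counts were set to a floor of 3. A count of 0 allows 0.213 CPM in treated DCs, 0.126 in PBS DCs, 0.162 in treated T cells and 0.161 in PBS T cells. Exact intervals came from SciPy 1.17.1 and were tested on simulated data. Members and lists were chosen with earlier results of these data known. Named are the inducible members, their counterparts, Psmf1, Psmg1 to Psmg4 and every member called; other members are named to complete their role group. DESeq2 1.42.0 size factors, total-count CPM, upper-quartile factors, 2 kinds of centring, other count minimums, folds and a pseudocount of 1 were alternatives. The deposited FPKM were treated as total-count CPM, since both give the same ratios. GC content came from GENCODE M21 transcripts, for 99.9% of genes tested in T cells. Single values of some genes on these lists are not reported here.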

Additional observations from a re-analysis of the deposited data

Results flagged for a closer look

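Of the 50 members 23 had log2 ratios of opposite sign in the 2 cell types with both counting intervals excluding 0. This count takes in small ratios, such as 0.14 in DCs and -0.13 in T cells for Psme2. The share over all genes was not computed, so the count is not read as particular to the members. Of these 23, the 3 that were at least 2-fold apart in DCs and at least 1.5-fold apart in T cells were Psmb7, Psmc3 and Psmf1. Psmb7 had a ratio of -1.22 in DCs and 1.03 in T cells. Psmc3 had a ratio of -1.42 in DCs and 0.65 in T cells. Psmf1 had a ratio of -2.26 in DCs and 0.82 in T cells. The DC calls of Psmb7 and Psmc3 were lost when genes were centred on those of like length, at -0.54 and -0.36. With GC content added Psmb7 was called lower in DCs at -1.16, and Psmc3 stood at 0.11. With 1 library per group the difference between the cell types was not tested.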

How the results depend on the processing

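No paired analysis was possible because the treated and PBS groups share no replicate number and hold 1 library each, and no replicate could be left out. The intervals on these ratios of single libraries take in counting error only, and other differences between libraries were not measured. Differences below 2-fold in genes with few counts were not resolved.
In DCs the members called higher numbered 6 when centred on the median of all genes, 9 when centred on genes of like length, 9 with GC content added, 6 at 1.5-fold, 1 at 4-fold and 1 with a minimum of 1000 counts. Those called lower numbered 12 with length centring, 13 with GC content added and 10 at 4-fold. Of all genes 35.1% were higher and 37.9% lower when centred on the median, and 34.7% and 36.9% with length. With GC content added these shares were 34.3% and 36.3%. They were 36% and 46.7% at 1.5-fold, 18.6% and 31.9% at 4-fold and 21.7% and 40.6% with a minimum of 1000 counts. The inducible median was -0.73 with total-count CPM, -0.62 with upper-quartile factors, -0.32 when centred on the median, 0.82 with length and 1.12 with length and GC content. Ratios of the deposited FPKM equal those of total-count CPM and are no separate check. The median of the others was -0.78 when centred on the median, -0.25 with length, -0.35 with length and GC content and -1.32 without the 3 rows that match by name only. The difference of these medians was 1.06 with length and 1.46 with length and GC content. The change of Psmb10 over Psmb7 was 0.37 and 0.77 under these 2 corrections, with counting intervals excluding 0. Under every centring, here and in T cells, the counting interval was only shifted. The error of the subtracted medians is thus not included. With length and GC content, Psmb9 over Psmb6 reversed to -0.64, Psmb6 to 0.44, Psmc3 to 0.11, Psmd7 to 0.0525 and Psme1 to 1.12. Psmb8 over Psmb5 stayed above 0 in DCs with length, with length and GC content and with log2(CPM + 1). Library scaling and centring on the median cancel in this value, so those alternatives could not change it.

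In T cells the members called higher numbered 0 with upper-quartile factors, 0 with log2(CPM + 1), 5 at 1.5-fold, 0 at 4-fold, 0 with a minimum of 1000 counts and 2 with length and GC content. Those called lower numbered 4 at 1.5-fold and 0 at 4-fold. Of all genes 16.7% were higher and 27.1% lower with upper-quartile factors, and 17% and 23.7% with log2(CPM + 1). These shares were 27.1% and 33.7% at 1.5-fold and 9.07% and 16% at 4-fold. They were 10.5% and 7.25% with a minimum of 1000 counts, and 19% and 24.5% with length and GC content. The inducible median was -0.0141 with upper-quartile factors and 0.15 when centred on the median. The median of the others was -0.26 with upper-quartile factors, 0.0946 with length and 0.0076 with length and GC content. The difference of these medians was -0.0274 with length and 0.0369 with length and GC content. Psmb8 over Psmb5 reversed to -0.17 with length and was 0.0488 with length and GC content, and Psmb10 over Psmb7 was -0.12 with length, each of the last 2 with an interval that includes 0. Psmb10 over Psmb7 had no value in T cells with a minimum of 1000 counts. The minimum of 1000 counts, the GC correction, the removal of the rows that match by name only and the sum of Psme2 and Psme2b were chosen after seeing the data. The cause of these changes was not tested.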
